A study of Mus musculus with 14 samples.

Results

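Common dendritic cell progenitors (CDP) were set against granulocyte-monocyte progenitors (GMP) on 4 single-colour Agilent arrays, the 2 arrays labelled as wild-type CDP and the 2 labelled as wild-type GMP, out of 14 arrays in 7 groups in the series. Both populations were primary bone marrow cells of wild-type C57BL/6 mice, enriched on magnetic beads and then sorted by flow cytometry, with no treatment named. The GMP gate excluded cells with lineage antigens, IL-7R, Sca-1 or CD115 and required CD117 and CD16/32. The CDP gate excluded the same lineage antigens, IL-7R and Sca-1, and required an intermediate level of CD117 together with CD115 and CD135. The other groups were GMP of mice labelled IRF8KO and wild-type pre-cDC, CD4+ cDC, CD8+ cDC and Neu. No age, sex or pooling of mice is stated in the sources used here. They do not say whether the replicates of a group came from separate animals either. The p-values and standard errors (SE) below reflect the spread between replicates over the 12 arrays of 6 groups in the fit. That spread may be technical.

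GMP are bone marrow progenitors that give rise to neutrophils and monocytes. CDP are later progenitors that give rise to the classical dendritic cells cDC1 and cDC2, which present antigen to T cells, and to plasmacytoid dendritic cells (pDC), which make type I interferon. In this system IRF8 and PU.1 are transcription factors of the monocyte and dendritic cell fates, C/EBP-alpha and C/EBP-epsilon of the neutrophil fate, and GATA factors of red cells, platelets, mast cells and basophils.

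Each value below is the log2 of a gene's processed signal relative to the 75th percentile of its array, so that 0 is the level at that percentile. Before this scaling the GMP arrays were brighter, with a 75th percentile of 487 and 516 against 77.5 and 77.4 on the CDP arrays. Of all probes, 43.6% and 44.8% were well above background on the GMP arrays and 39.4% and 40.1% on the CDP arrays, and no spot was saturated. The GMP arrays shared slide 1 and the CDP arrays slide 2, so slide and cell type cannot be told apart. Replicate arrays correlated across genes at r = 0.9914 in GMP and 0.9956 in CDP, and the median gene differed between replicates by 0.0618 and 0.0823. Precision is limited throughout by having 2 arrays a group.

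The genes of the gate proteins are a check of the labels and no finding. Csf1r, which encodes CD115, read 4.32 and 4.28 in GMP and 8.21 and 8.28 in CDP. Kit, which encodes CD117, read 5.27 and 5.23 in GMP and 2.22 and 2.25 in CDP. Flt3, which encodes CD135, read 2.85 and 2.86 in GMP and 5.50 and 5.56 in CDP. All 3 followed the gates, and GMP carried Csf1r and Flt3 transcripts well above background although the GMP gate was drawn on cells without surface CD115. Fcgr3, which encodes CD16, read 2.95 and 2.97 in GMP and 0.10 and -0.07 in CDP. Fcgr2b, which encodes CD32, was nearly level at 1.99 and 2.0 against 2.15 and 2.17. Ly6a, which encodes Sca-1, read 1.62 and 1.53 in GMP and 1.17 and 1.16 in CDP, and Il7r was not well above background on both arrays of either group. All 8 GMP markers and all 5 CDP markers on the marker lists were well above background in both populations.

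The comparison asks what separates a progenitor of the dendritic cell branch from one of the granulocyte and monocyte branch. A gene was tested where it was well above background on both arrays of either cell type, and called at an adjusted p under 0.05 (limma, Benjamini-Hochberg, 12 arrays in the fit). Of 11899 genes tested, 9356 were called, or 78.6%: 6215 were higher in CDP (52.2%) and 3141 lower (26.4%). With so many calls, a share of called genes near these values says nothing particular, and size tells more. At least 2-fold, 2642 called genes were higher (22.2%) and 1487 lower (12.5%). At least 4-fold, 643 were higher (5.4%) and 628 lower (5.28%). The balance of the directions moved with the scaling of the arrays: 66.4% of calls were higher in CDP here, 58.1% after normexp background correction, 51.7% after quantile normalization, 52.4% in the table the authors deposited and 40.5% when only probes detected on every array set the percentile. The median difference over all genes was 0.31 on the main scale and between -0.203 and 0.283 under the other scalings. Genes called in the same direction under the main scaling and under all 5 others numbered 3357 higher (28.2%) and 2015 lower (16.9%). These shares stand beside the lists below. Among the 5, the authors' table holds the same set of values on every array, as after quantile normalization, so that pair is not independent. RNA of a sorted population was measured as a whole, so fewer cells that express a gene and less RNA of it per cell cannot be told apart.

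**Figure D1:**
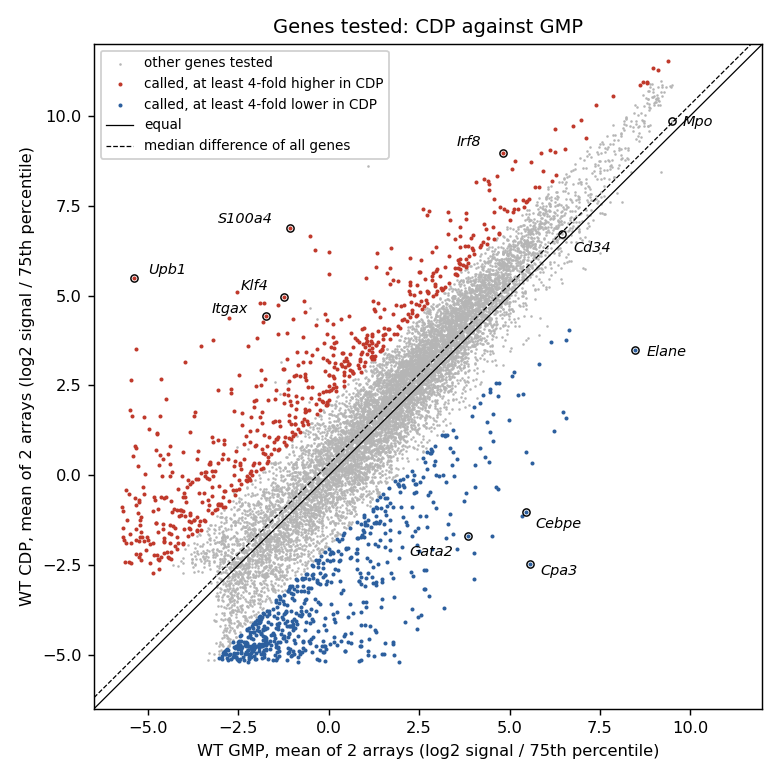
Mean log2 signal relative to the array's 75th percentile of each of 11899 genes tested, in wild-type GMP (horizontal axis) and wild-type CDP (vertical axis), 2 arrays each; red and blue mark called genes at least 4-fold higher or lower in CDP, the solid line equal levels and the dashed line the median difference of 0.31. S100a4, Irf8, Klf4 and Itgax lie above the cloud, Cebpe, Elane, Gata2 and Cpa3 below it, and Mpo and Cd34 near the lines.

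Among genes well above background on all 4 arrays, the largest rise belonged to S100a4, which encodes a calcium-binding protein of the S100 family. It read -1.02 and -1.11 in GMP and 6.85 and 6.89 in CDP, a difference of 7.94 ± 0.08 (SE, n = 2 arrays per group throughout; limma's adjusted p = 2.8e-10). Its relative S100a6 went from -0.50 and -0.55 to 6.61 and 6.70. The lysosomal endopeptidase gene Lgmn read -2.62 and -2.48 in GMP and 5.08 and 5.15 in CDP, a difference of 7.66 ± 0.19 (adjusted p = 1.36e-08). All 3 genes were picked for the size of their rise, so the distance between the groups is no further finding. The replicates of each cell type lay close together. The rest of the 12 largest rises were Lilra6 (6.70), a paired immunoglobulin-like receptor gene, Lgals3 (6.63), which encodes galectin-3, Jaml (6.58), which encodes a junctional adhesion molecule of leukocytes, Klf4 (6.2), Ppfia4 (6.2), Itgax (6.17), Aif1 (6.14), Pdzd4 (6.10) and Ptpro (5.85), a receptor-type tyrosine phosphatase gene. The 2 probes for Ppfia4 did not move the same way, so its rise is that of its brighter probe alone.

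Among the same genes the 3 largest falls were those of Hdc, Cebpe and Car1. Hdc, which encodes the enzyme that makes histamine, read 5.34 and 5.37 in GMP and -1.19 and -1.08 in CDP, a difference of -6.49 ± 0.13 (limma's adjusted p = 5.01e-09). Cebpe, which encodes C/EBP-epsilon, needed for late neutrophil maturation, read 5.47 and 5.46 in GMP and -1.26 and -0.77 in CDP, a difference of -6.48 ± 0.15. Car1, a carbonic anhydrase gene of red cells, went from 4.53 and 4.51 to -1.66 and -1.74. These 3 were picked for the size of their fall, so the distance between the groups is no further finding. The other 9 were Tfr2 (-6.17), which encodes transferrin receptor 2, Vat1 (-5.60), Gata2 (-5.53), Apoe (-5.29), which encodes apolipoprotein E, Pglyrp1 (-5.26), Arap3 (-5.08), Car2 (-5.05), Dach1 (-5.01) and Elane (-5.01), which encodes neutrophil elastase.

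For genes not well above background on either array of one cell type, only a lower limit of the fold is given, set against the lowest signal that the array marked as well above background. Of the genes tested, 216 were of this kind in GMP and 759 in CDP. Upb1, which encodes beta-ureidopropionase, led with 5.47 and 5.51 in CDP against -5.33 and -5.46 in GMP, at least 555-fold higher in CDP (limma's adjusted p = 4.71e-08). Next came the ephrin receptor gene Epha2 (at least 141-fold), the fibronectin gene Fn1 (at least 124-fold), the cDC1 lectin gene Clec9a (a lower limit of 6.74 on the log2 scale), Ly6d (at least 79.4-fold), Cd209a (at least 77.3-fold), Ccr7 (at least 53.5-fold) and Rnd3 (at least 43.3-fold). In the other direction, Mdga1 was at least 66.7-fold lower in CDP. It was followed by the calprotectin subunit gene S100a8 (at least 53.6-fold lower), the lipoxygenase gene Alox5 (at least 49.2-fold lower), Hgfac (at least 46.1-fold lower), Syt10 (at least 46.1-fold lower), Il1rl1 (at least 43.4-fold lower), Mrgpra2b (at least 41.9-fold lower) and Mrgpra2a (at least 38.7-fold lower). Mrgpra2a and Mrgpra2b are close relatives, and a probe for one may bind the other's transcript.

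Transcription factors of the blood lineages changed widely. Of 67 tested members of the list, 38 were higher in CDP, 23 lower and 6 not called, and 29 were at least 2-fold higher and 18 at least 2-fold lower. Under every scaling 32 remained called as higher and 19 as lower (28.2% and 16.9% of all genes tested). The list's median difference was 0.51, beside 0.31 over all genes, so its spread in both directions describes it better than its middle.

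Among interferon regulatory factors, Irf8 read 4.79 and 4.87 in GMP and 8.96 and 8.98 in CDP, a difference of 4.14 ± 0.07 (limma's adjusted p = 2.35e-09). The CDP level was close to that of pre-cDC, at a mean of 9.08 for Irf8, while the probe was already well above background in GMP. Irf5, which encodes a factor of inflammatory cytokine induction, went from 0.37 and 0.36 to 3.38 and 3.45. Irf4, which encodes a factor of the cDC2 branch, read -1.70 and -1.48 in CDP but was not well above background in GMP, at least 4.1-fold higher (adjusted p = 0.018), and it was the least firm of the 3, called in 9 of 13 alternatives. Irf2 (1.03) and Irf1 (0.90) rose less, and Irf7 (0.27, adjusted p = 0.134) was not called. The gene for the partner of these factors at composite DNA sites, Spi1 (PU.1), read 0.88 and 0.98 in GMP and 1.26 and 1.45 in CDP, a difference of 0.42 ± 0.07 that was not kept in sign by every scaling. Its relative Spib, which encodes a factor of pDC and B cells, was not well above background in GMP and read 1.19 and 1.13 in CDP, at least 27.6-fold higher (adjusted p = 2.42e-07).

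Kruppel-like factors were the other group with large rises. Klf4, which encodes a factor of monocytes and a part of the cDC2 branch, read -1.36 and -1.14 in GMP and 4.95 and 4.96 in CDP, a difference of 6.2 ± 0.08 (limma's adjusted p = 9.9e-10). Klf2, known for quiescence and trafficking of leukocytes, read 1.53 and 1.72 in CDP but was not well above background in GMP, at least 38.1-fold higher. Klf6 went from 1.30 and 1.28 to 4.53 and 4.62. The red cell member of the family, Klf1, ran the other way, at 0.93 and 0.84 in GMP and not well above background in CDP, at least 13.5-fold lower (adjusted p = 5.23e-05).

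Factors named for mature dendritic cell branches were higher in CDP too. Batf3, needed for cDC1, read -1.14 and -1.15 in CDP but was not well above background in GMP, at least 5.56-fold higher. Id2, which encodes an inhibitor of E proteins and is needed for cDC1, went from -0.78 and -1.10 to 1.44 and 1.38. Nfil3, also a factor of cDC1, went from 0.94 and 0.77 to 3.20 and 3.28. On the pDC side, Tcf4, which encodes the E protein E2-2, rose from 2.39 and 2.21 to 3.46 and 3.59, and Runx2 from -1.41 and -1.45 to 0.90 and 1.10. Zbtb46, a factor gene of classical dendritic cells, was at least 2.22-fold higher in CDP. Genes of opposed branches, such as Id2 and Tcf4, rose side by side in the sorted population. Bcl11a (1.56), Zeb2 (1.19), Bcl6 (2.45), Ikzf1 (2.06), Rara (4.09), Runx1 (1.45), Runx3 (1.05) and Relb (1.02) were also higher. Zeb2 has a second measured probe that did not move the same way.

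Factors of the other myeloid lineages were lower. Gata2, of mast cells and stem cells, read 3.82 and 3.86 in GMP and -1.82 and -1.56 in CDP, a difference of -5.53 ± 0.22 (limma's adjusted p = 1.21e-07). Gata1, of red cells and platelets, went from 4.04 and 4.02 to -0.34 and -0.35, and its cofactor gene Zfpm1 from 4.56 and 4.52 to 1.76 and 1.65. Gfi1b, a repressor gene of the same lineages, went from 3.01 and 2.94 to -0.89 and -0.93. Tal1 fell by less, from 3.53 and 3.53 to 2.04 and 2.18. Each of these 5 genes was called as lower under every scaling, as were 16.9% of all genes tested.

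Of the neutrophil factors, Cebpe gave the largest fall (-6.48), and Gfi1, which encodes a repressor of monocyte genes, read 4.32 and 4.62 in GMP and 1.31 and 1.10 in CDP, a difference of -3.26 ± 0.18 (limma's adjusted p = 8.42e-07). Cebpa, which acts earlier, fell by 1.40 and stayed well above background in CDP, at 2.30 and 2.25. Cebpb went the other way, from 2.59 and 2.68 to 3.86 and 3.84. Cebpd read 3.96 and 3.81 in GMP and 4.49 and 4.58 in CDP, a rise of 0.65 that was called under 1 of the 5 other scalings. Of these 4 C/EBP genes, Cebpe and Cebpa were thus lower in CDP, and Cebpb and Cebpd higher. Trib1, whose product promotes degradation of C/EBP-alpha, was not well above background in CDP and only at least 1.05-fold lower. Its difference of -1.56 turned to 0.69 after normexp background correction.

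Stem cell and growth factors of the list were mostly lower. Mycn read 1.54 and 1.51 in GMP but was not well above background in CDP, at least 22.5-fold lower (limma's adjusted p = 4.71e-08), and Hlf was at least 15.9-fold lower. Myc went from 4.25 and 4.17 to 2.52 and 2.66. Meis1 fell from 3.94 and 3.89 to 2.36 and 2.43, Hoxa9 by 1.05 and Ikzf2 by 3.22, whereas Myb fell by only 0.67, from 6.48 and 6.38 to 5.72 and 5.8. Fli1 read 3.32 and 3.29 in GMP and 3.33 and 3.31 in CDP. It was not called (limma's adjusted p = 0.82), though lower under 4 other scalings. Erg (0.51), Mef2c (0.21), Tcf3 (-0.18) and Egr1 (-1.28) were not called either. Egr1 was not well above background in CDP, with a lower limit of 1.3-fold for its fall.

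**Figure D2:**
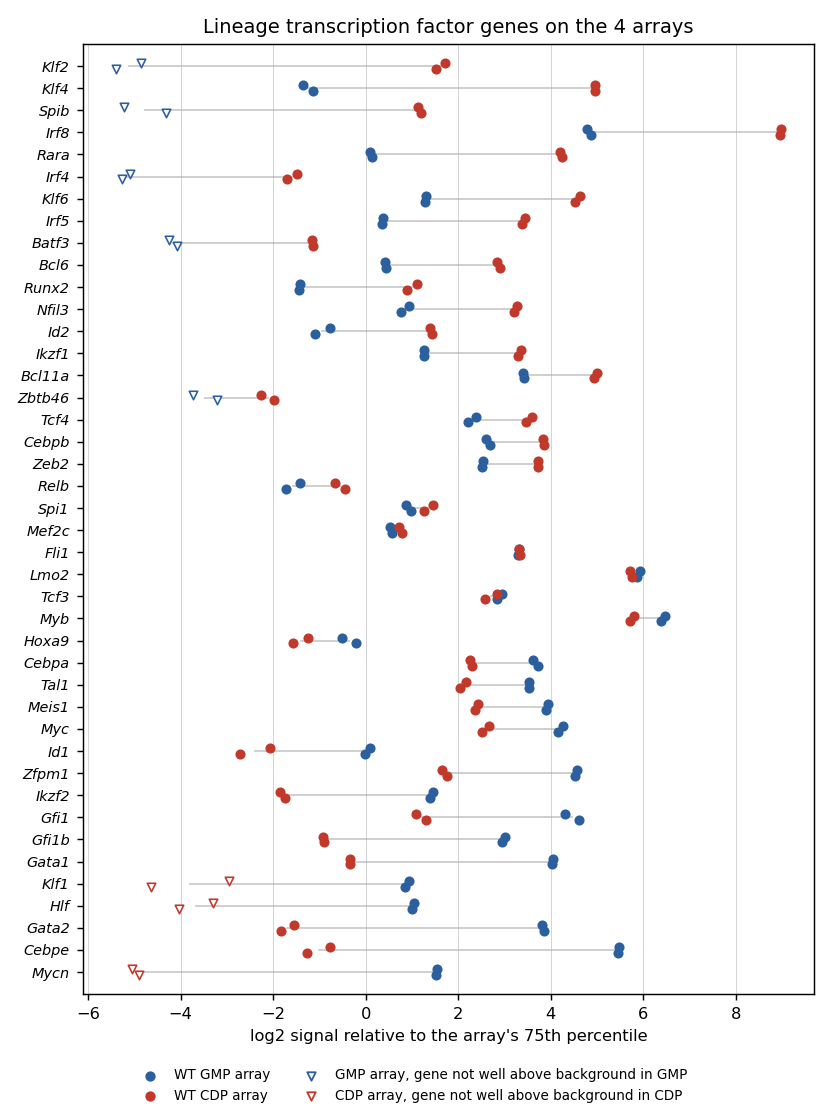
Log2 signal relative to the array's 75th percentile of 42 lineage transcription factor genes, ordered by the difference between CDP and GMP; each point is 1 array, blue for wild-type GMP and red for wild-type CDP, and open triangles mark genes not well above background on either array of that cell type. Klf2, Klf4, Spib and Irf8 head the plot, with both CDP arrays far to the right of both GMP arrays, and Mycn, Cebpe and Gata2 end it with the reverse order.

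Promoters of the changed genes were read for the letters that these factor families bind, as a description without a test. The promoter sequences are those of RefSeq for assembly GRCm38.p6, from 250 bases before to 50 bases after each annotated start, and 514 of the 643 genes at least 4-fold higher in CDP and 507 of the 628 at least 4-fold lower had at least 1. The PU.1 letters GAGGAAGT, read on both strands, stood in 7.02% of 641 promoters of the higher genes, 2.43% of 659 promoters of the lower genes, 3.26% of promoters of all genes tested and 3.2% of all 32851 promoters. The GATA letters AGATAA stood in 7.64% of the higher genes' promoters, 13.1% of the lower genes', 6.89% of those of all genes tested and 11.2% of all promoters. The C/EBP letters TTGCNNAA gave 8.11%, 13.2%, 8.81% and 10.8% in the same order. The higher genes held the PU.1 letters at over the share of all genes tested, and the lower genes held the GATA and C/EBP letters at over that share. Lying over that share was not particular to these letters. The higher genes did so for every motif read except GATA and C/EBP, as with 19.7% against 15% for the E box CAGCTG. The lower genes did so for every motif except PU.1 and the ETS-IRF motif given below. The RUNX letters TGTGGTT stood in 3.9% of the higher genes' promoters, 4.1% of the lower genes', 3.74% of those tested and 5.27% of all. In the same order the KLF letters CCACACCC gave 5.3%, 4.86%, 3.86% and 3.56%. The E box CAGCTG gave 19.7%, 16.4%, 15% and 16.3%, and the E box CACCTG 19.5%, 20.3%, 17.8% and 20.2%. These motifs differed less between the higher and the lower genes. So did the composite ETS-IRF motif of PU.1 with an IRF (3.12%, 2.12%, 2.34% and 2.72%), and the interferon response motif (4.06%, 4.4%, 3.11% and 3.44%). A match is a description and not a site. None of these motifs holds another in whole, the last 2 can overlap each other and the PU.1 letters in part, and neighbouring starts of a gene share sequence.

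The stretches around the PU.1 letters of 6 higher genes follow, because they show these letters in their context close to the start; capitals mark the match, every sequence runs 5′ to 3′ on the strand of the gene, and coordinates are of GRCm38.p6. The match begins 103 bases before the start in Kmo, 18 in Btla and 120 in Pirb, 2 before it in Ctss, and 1 and 18 bases after it in Itgb7 and S100a4, where it reads on the opposite strand as in Ctss.
Kmo, chr1:175632050-175632137, plus strand: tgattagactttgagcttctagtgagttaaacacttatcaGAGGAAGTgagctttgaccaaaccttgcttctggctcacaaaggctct
Btla, chr16:45224279-45224336, plus strand: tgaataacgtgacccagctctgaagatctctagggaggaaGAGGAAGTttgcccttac
Pirb, chr7:3720455-3720542, minus strand: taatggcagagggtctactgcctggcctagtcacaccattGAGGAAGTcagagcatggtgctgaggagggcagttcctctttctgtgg
Ctss, chr3:95526774-95526801, plus strand: atgaaagttcACTTCCTCattgtggatg
Itgb7, chr15:102231918-102231945, minus strand: agggtgtgtcACTTCCTCctctgctgcc
S100a4, chr3:90603777-90603804, plus strand: tctattcagcACTTCCTCtctcttggtc

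The same is shown for the GATA letters of 4 lower genes, 2 of mast cells and basophils (Cpa3, Ms4a2) and 2 of red cells (Epor, Rhd), in which the match nearest the start begins 46, 11, 54 and 43 bases before it; Ms4a2 holds a second match 37 bases before the start, on the opposite strand. The last line gives Elane, a gene of neutrophil granules that fell in CDP and yet holds the PU.1 letters 85 bases before its start, so that these letters are found in genes of both directions.
Cpa3, chr3:20242182-20242267, minus strand: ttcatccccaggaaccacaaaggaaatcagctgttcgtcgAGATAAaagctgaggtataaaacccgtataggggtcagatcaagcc
Ms4a2, chr19:11623720-11623770, minus strand: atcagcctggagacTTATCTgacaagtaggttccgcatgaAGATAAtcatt
Epor, chr9:21963585-21963670, minus strand: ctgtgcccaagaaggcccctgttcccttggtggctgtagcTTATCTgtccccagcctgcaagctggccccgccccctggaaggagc
Rhd, chr4:134864453-134864535, plus strand: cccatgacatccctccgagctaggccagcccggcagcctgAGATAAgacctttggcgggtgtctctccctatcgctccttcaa
Elane, chr10:79886187-79886274, plus strand: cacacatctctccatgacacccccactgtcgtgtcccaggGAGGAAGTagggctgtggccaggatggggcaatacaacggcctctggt

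Cytokine receptor genes changed in both directions. Of 34 tested, 23 were higher in CDP and 10 lower, 12 and 8 of them at least 2-fold, and 16 and 9 under every scaling; Csf1r, Flt3 and Kit are gate genes among them. The interleukin-10 receptor gene Il10ra read -0.04 and -0.07 in GMP and 3.88 and 4.0 in CDP, a difference of 3.99 ± 0.12 (limma's adjusted p = 3.7e-08). Il6st, which encodes the shared signal chain gp130, went from 0.74 and 0.49 to 3.97 and 3.93, and its partner gene Il6ra from 3.74 and 3.82 to 6.28 and 6.45. Il4ra, for interleukin-4, went from -0.92 and -0.86 to 2.03 and 2.07. Receptors for interferons also rose in part, with Ifngr2 at 2.24, Ifnar2 at 1.85 and Ifnar1 at 1.40, while Ifngr1 fell by 0.91. Il3ra rose by 1.92, and Lifr read 0.54 and 0.60 in CDP against -5.39 and -3.93 in GMP, where this probe, though not every probe of the gene, was not well above background.

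Receptors of the red cell, mast cell and eosinophil factors were lower. Epor, the erythropoietin receptor gene, read 2.43 and 2.42 in GMP and -2.03 and -1.85 in CDP, a difference of -4.37 ± 0.09 (limma's adjusted p = 6.45e-09). Il1rl1, which encodes the interleukin-33 receptor ST2, read 2.48 and 2.47 in GMP and -3.95 and -3.95 in CDP. Il2rg (-2.40), Tgfbr2 (-1.50) and Il1r1 (-1.86) were lower as well, and Il5ra was at least 2.97-fold lower but changed sign after normexp background correction. Besides the gate gene Csf1r, for the macrophage growth factor, receptor genes of the granulocyte and granulocyte-macrophage factors were called higher by under 2-fold. Csf3r read 7.25 and 7.10 in GMP and 7.59 and 7.62 in CDP, and its sign turned under some scalings. Csf2ra went from 4.87 and 4.92 to 5.70 and 5.73. The beta chain genes Csf2rb2 (0.91) and Csf2rb (0.68, not called under 3 of the 5 other scalings) are near-identical copies, and in each the second probe did not move the same way.

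Dendritic cell genes were higher as a class. Of 25 tested genes of the dendritic cell core list, 20 were higher and 4 lower, 15 and 2 of them at least 2-fold, and the counts under every scaling were 15 and 2 as well. The median difference was 1.69 beside 0.31 over all genes, and Flt3 is a gate gene among the members. Itgax, which encodes CD11c, read -1.65 and -1.85 in GMP and 4.39 and 4.45 in CDP, a difference of 6.17 ± 0.07 (limma's adjusted p = 6.27e-10). Ccr7, the receptor gene that guides dendritic cells to lymph nodes, read 2.0 and 2.23 in CDP but was not well above background in GMP. Kmo, an enzyme gene of tryptophan breakdown, went from -0.34 and -0.35 to 4.12 and 4.25. Adam19 was at least 18-fold higher, Gpr183 rose by 3.52, Btla, whose product dampens lymphocytes, by 3.28, and Haao, which acts downstream of Kmo, by 2.65. Not every core gene rose: Fgl2 went from 1.13 and 1.18 to -1.50 and -1.40, and P2ry14, with a mean of 5.05 in CD8+ cDC, was at least 12.9-fold lower in CDP than in GMP.

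The branch markers of cDC1, cDC2 and pDC all included genes with large rises. Of 10 tested cDC1 genes 8 were higher and none lower, with 2 not called (Ppt1 and Snx22) and a median of 2.15; 9 further members of the list were not well above background, Xcr1, Cadm1 and Tlr3 among them. Clec9a, which encodes a receptor for dead cells, read 3.15 and 3.16 in CDP and -3.25 and -4.72 in GMP, where it was not well above background. Cxcr3, a chemokine receptor gene, was at least 5.53-fold higher. Wdfy4, needed for cross-presentation, was well above background in both, at 5.51 and 5.47 in GMP and 6.48 and 6.50 in CDP.

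Of 16 tested cDC2 genes, 10 were higher and 5 lower (10 and 3 at least 2-fold; median 1.54, or 1.51 with genes below background at their bounds). Cd209a, a lectin gene, read 2.62 and 2.68 in CDP but was not well above background in GMP. Cd7 went from -3.11 and -2.42 to 4.37 and 4.38, and Cx3cr1, the fractalkine receptor gene, from 1.32 and 1.36 to 6.15 and 6.23, a difference of 4.85 ± 0.06 (limma's adjusted p = 9.9e-10). Clec10a rose by 3.52. The lower members were Adgre5 (-1.38), Esam (-1.12), Cd300a (-1.03), Cd4 (-0.69) and Itgam (-0.44), and Esam changed sign after normexp background correction.

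Of 19 tested pDC genes, 13 were higher and 3 lower (12 and 1 at least 2-fold), with a median of 2.87. Some passed the filter through CDP alone. Over the 13 well above background on all 4 arrays the median was 1.23, with 8 higher and 3 lower. Besides Upb1, Ly6d and Spib, Cox6a2, which encodes a cytochrome oxidase subunit, went from -0.67 and -0.65 to 4.51 and 4.56, a difference of 5.19 ± 0.05 (limma's adjusted p = 2.15e-10). Blnk, an adaptor gene of B cell signalling, read 2.31 and 2.46 in CDP against -2.68 and -3.47 in GMP. Bst2 was already present in GMP, at 3.82 and 3.79, and reached 7.15 and 7.12 in CDP. The pDC surface marker gene Siglech differed little, at 6.73 and 6.97 against 7.23 and 7.21, and was not called as higher under any other scaling. Tlr7 fell by 1.11 and Tlr9 by 0.33, the receptor genes that pDC use to sense nucleic acids; the 2 probes for Tlr7 did not move the same way. Ccr9, a late pDC marker, was not well above background on both arrays of either population.

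Monocyte and macrophage genes rose with the dendritic cell genes. Of 31 tested, 26 were higher, 25 of them at least 2-fold, and 3 lower, with a median of 2.77, and 24 remained higher under every scaling; the gate gene Csf1r is among them. Fn1, the fibronectin gene, read 3.72 and 3.80 in CDP and -3.03 and -3.36 in GMP, where it was not well above background. Lgals3 went from -0.35 and -0.40 to 6.21 and 6.31, a difference of 6.63 ± 0.07 (limma's adjusted p = 2.8e-10). F13a1, which encodes a coagulation factor subunit of monocytes, was chosen after its values were seen: it read 4.36 and 4.5 in GMP and 8.12 and 8.08 in CDP, above each of the 5 other groups on this array design. The summed signal of the 4 monocyte markers on the array was 26.8 and 29 in GMP and 363 and 364 in CDP, in units of the array's 75th percentile. Most of each sum came from F13a1. Of the 6 macrophage markers, C1qc was not well above background in either population and C1qa, Vcam1 and Mrc1 were not in CDP. C1qb was not called, and Adgre1 was higher in CDP, from -1.63 and -1.63 to -0.59 and -0.62. The summed signal of all 6 was 2.16 and 2.32 in GMP and 1.14 and 1.21 in CDP. Vcam1 had the highest level of them in GMP, at 0.45 and 0.40. Lyz2 (-0.62), Cd300a (-1.03) and Ifitm3 (-0.38) were lower.

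The machinery of antigen processing held proteases with large rises and class II chains with small differences. Of 17 tested genes of class II presentation, 13 were higher and 2 lower (11 and 0 at least 2-fold; median 1.52). Ctss, the cathepsin that trims the invariant chain, read 1.32 and 1.28 in GMP and 5.81 and 5.79 in CDP, a difference of 4.51 ± 0.06 (limma's adjusted p = 9.9e-10). Ifi30, a lysosomal thiol reductase gene, went from 1.07 and 1.02 to 5.52 and 5.46. The co-stimulatory genes Cd86 and Cd40 were at least 3.71-fold and at least 3.75-fold higher, at levels close to background. The chains of the class II molecule are given after their values were seen. H2-Ab1 fell from 3.69 and 3.77 to 3.09 and 3.21, H2-Aa read -2.85 and -2.71 in GMP and -1.85 and -1.99 in CDP, and H2-Eb1 -0.52 and -0.30 against 0.26 and 0.27. In CD8+ cDC the same H2-Aa probe had a mean of 8.57, far above both progenitors.

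Of 22 tested class I loading genes, 11 were higher and 5 lower (50% and 22.7%), near the shares of all genes tested (52.2% and 26.4%). At least 2-fold, 6 were higher and 0 lower. The median was 0.135, which turned negative under 4 of the 5 other scalings, and proteasome genes led the rises. Psme2, a proteasome activator gene, went from 6.30 and 6.28 to 7.88 and 7.87, Psmb9 rose by 1.57 and Psmb8 by 1.52 (limma's adjusted p = 1.03e-06 for Psmb8). The heavy chain gene H2-K1 fell by 0.39, from 7.65 and 7.66 to 7.24 and 7.29. Of 38 lysosomal genes, 28 were higher and 7 lower (20 and 4 at least 2-fold; median 1.08), led after Lgmn by Ctsh, which went from 2.63 and 2.61 to 7.38 and 7.43, and with Plbd1 at 4.06. Cd63, a tetraspanin gene of granules, opposed them, with 6.57 and 6.53 in GMP and 1.54 and 1.64 in CDP, a difference of -4.96 ± 0.07 (adjusted p = 9.9e-10).

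Genes of the primary granules of neutrophils were mostly lower. Of 18 tested primary granule genes, 15 were lower and 3 higher (10 and 1 at least 2-fold), with a median of -1.25. Elane read 8.48 and 8.49 in GMP and 3.48 and 3.47 in CDP, a difference of -5.01 ± 0.05 (limma's adjusted p = 2.85e-10), and Ms4a3 fell from 6.51 and 6.44 to 1.72 and 1.79. Mpo, the myeloperoxidase gene and a product of the same granule, differed little, at 9.56 and 9.43 in GMP and 9.85 and 9.88 in CDP. Other GMP markers lay between: Ctsg read 9.19 and 9.19 in GMP and 8.43 and 8.47 in CDP, and Prtn3 7.07 and 7.01 against 5.73 and 5.81. The difference of 0.37 for Mpo turned negative under other scalings, down to -1.46, so its direction is not settled, whereas Elane fell under every scaling. Slpi, which encodes an inhibitor of elastase, rose from 5.15 and 5.10 to 7.36 and 7.48.

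Genes of secondary granules and of mature neutrophils were mostly lower too. Of 17 tested, 14 were lower, 13 of them at least 2-fold, and 3 higher, with a median of -3.12 (-2.66 with genes below background taken at their bounds), and 12 remained lower under every scaling. Pglyrp1, which encodes a peptidoglycan-binding protein of the granules, read 2.64 and 2.61 in GMP and -2.65 and -2.62 in CDP, a difference of -5.26 ± 0.05 (limma's adjusted p = 2.15e-10). S100a8 read 2.82 and 2.74 in GMP but was not well above background in CDP. Wfdc21 was at least 17-fold lower. The defining late genes Ltf and Ngp were not well above background in either population, and the summed signal of the 5 neutrophil markers on the array was 10 and 9.52 in GMP and 0.659 and 0.667 in CDP. Cd33 was at least 7.53-fold higher, and Mmp8 read -0.62 and -0.60 in CDP against -5.37 and -2.68 in GMP.

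Mast cell, basophil and eosinophil genes gave the lowest list medians over the genes tested, some of which passed the filter through GMP alone. The order depended on that filter. Over genes well above background on all 4 arrays, the median was -1.24 for 11 mast cell and basophil genes. It was -3.28 for 9 eosinophil genes and -3 for 8 secondary granule genes. All 10 tested eosinophil genes were lower, each at least 2-fold, with a median of -3.26, and 9 of them under every scaling. Of 22 mast cell and basophil genes 19 were lower (17 at least 2-fold, 14 under every scaling) and 3 higher, with a median of -3.52, or -3.1 with genes below background at their bounds; Kit is a gate gene among them. Cpa3, the mast cell carboxypeptidase gene, read 5.56 and 5.55 in GMP and -2.26 and -2.68 in CDP, a difference of -8.03 ± 0.16 (limma's adjusted p = 5.01e-09). Prg2, the eosinophil major basic protein gene, went from 6.2 and 6.24 to 1.30 and 1.14, and Epx, the eosinophil peroxidase gene, from 3.42 and 3.15 to -1.06 and -1.64. Ms4a2, which encodes the beta chain of the IgE receptor, was at least 9.17-fold lower and Fcer1a, its alpha chain, at least 13.8-fold lower. Fcer1g, the gamma chain that many Fc receptors share, went the other way, from 4.68 and 4.63 to 8.31 and 8.35. Of the basophil protease genes, chosen after their values were seen, Mcpt8 fell by 3.60 to 1.01 and 0.91 and Prss34 fell by 3.45, and both stayed well above background in CDP.

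Over the marker lists, the summed signal of the 6 mast cell and basophil markers was 122 and 118 in GMP and 5.59 and 5.44 in CDP. That of the 4 eosinophil markers was 90.9 on both GMP arrays and 3.52 and 3.22 in CDP, most of it from Prg2. How far cells of these lineages within the GMP gate take part in the falls was not tested.

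Red cell genes fell too. Of 31 tested, 21 were lower, 18 of them at least 2-fold, and 7 higher, with a median of -1.56, or -1.17 at bounds. Besides Car1 and Car2, Rhd, a blood group gene, read 0.47 and 0.44 in GMP but was not well above background in CDP (limma's adjusted p = 5.16e-08). Sphk1, a sphingosine kinase gene of red cells, read 2.01 and 1.87 in GMP and -2.10 and -2.52 in CDP. Of the globin genes, which near-identical copies make uncertain one by one, Hba-a1 fell from 1.73 and 1.73 to 0.18 and 0.16. The summed signal of the 5 red cell markers on the array was 33.8 and 33.2 in GMP and 1.78 and 1.86 in CDP. Tspan33 (1.44) and Tfrc (1.30), the transferrin receptor gene of dividing cells, led the higher members.

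Megakaryocyte and platelet genes divided. Of 26 tested, 17 were lower and 6 higher, 15 and 5 at least 2-fold and as many under every scaling, with a median of -1.41, or -1.3 at bounds. Itga2b, which encodes the integrin subunit CD41, read 3.85 and 3.74 in GMP and -0.37 and -0.61 in CDP, a difference of -4.29 ± 0.40 (limma's adjusted p = 1.81e-05). F2r, a thrombin receptor gene, went from 3.80 and 3.69 to -0.61 and -0.81, and Pf4, the platelet factor 4 gene, from 6.59 and 6.54 to 3.83 and 3.70. Ppbp, which encodes the chemokine that platelet granules hold beside platelet factor 4, went the other way, from -0.09 and -0.12 to 2.95 and 2.84, a difference of 3.0 ± 0.10 (adjusted p = 5.6e-08). Tubb1, the platelet tubulin gene, was at least 3.35-fold higher in CDP, and Gp6, the collagen receptor gene of platelets, at least 5.44-fold higher. Clec1b rose from -0.73 and -0.73 to 1.42 and 1.38, and Thbs1 from -2.16 and -2.82 to -0.20 and -0.08.

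**Figure D3:**
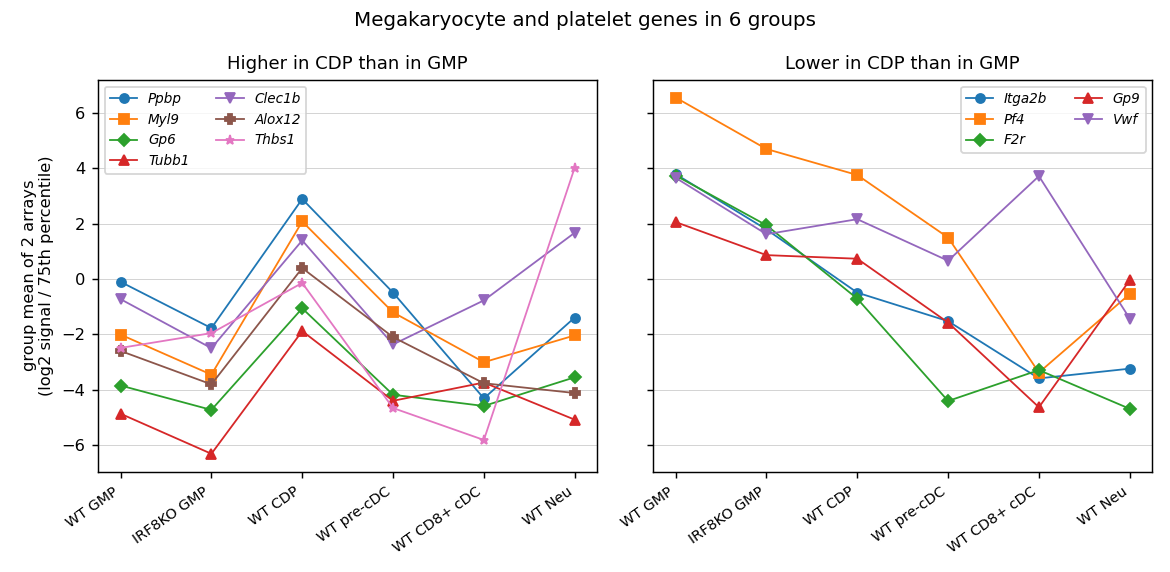
Group means (2 arrays each, log2 signal relative to the array's 75th percentile) of 7 megakaryocyte and platelet related genes that were higher in CDP than in GMP (left) and 5 that were lower (right), in wild-type GMP, IRF8KO GMP and wild-type CDP, pre-cDC, CD8+ cDC and Neu; lines only join the points of a gene. Ppbp, Myl9, Gp6, Tubb1 and Alox12 have their highest point in CDP, whereas Pf4, Itga2b, F2r and Gp9 are highest in wild-type GMP.

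Stem and progenitor genes were mostly lower. Of 33 tested, 25 were lower, 20 of them at least 2-fold, and 5 higher, with a median of -1.52, or -1.16 at bounds; the gate genes Kit and Ly6a are among the lower ones. Prom1, which encodes CD133, read 1.80 and 1.81 in GMP but was not well above background in CDP, at least 27.2-fold lower (limma's adjusted p = 1.16e-09). Spns2, a sphingosine phosphate transporter gene, went from 4.63 and 4.65 to -0.29 and -0.39. Cd34, which encodes the progenitor antigen, read 6.51 and 6.42 in GMP and 6.72 and 6.73 in CDP and was not called (adjusted p = 0.0957), and it was lower after quantile normalization, by 0.55. Cd48 (1.97), Egfl7 (1.92) and Sox4 (0.87) were higher.

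Part of the early lymphoid genes were higher, without the defining B cell genes. Of 31 listed, 18 were not tested, Rag1, Il7r and Igll1 among them. Of 13 tested, 8 were higher and 3 lower (7 and 1 at least 2-fold), with a median of 1.45. Under every scaling 7 remained higher and 1 lower. The lower members were Jchain (-1.79), Notch1 (-0.99) and Rag2 (at least 1.3-fold lower). Dntt, the terminal transferase gene of lymphoid progenitors, went from 0.14 and 0.10 to 3.79 and 3.91, a difference of 3.73 ± 0.07 (limma's adjusted p = 5.01e-09). Vpreb3 was at least 12.1-fold higher, and Vpreb1, which encodes a part of the surrogate light chain, was chosen after its values were seen and rose by 1.45. Of the 6 B cell markers, Ebf1, Pax5 and Ms4a1 were not well above background in either population, and the summed signal of all 6, carried by Cd79b, was 11.5 and 11.3 in GMP and 32.3 and 31.8 in CDP. Cd79b itself read 3.51 and 3.46 against 5.0 and 4.98.

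Of 14 tested T and NK cell genes, 6 were higher and 5 lower (42.9% and 35.7%, beside 52.2% and 26.4% of all genes tested). Klrd1, which encodes CD94, read 1.63 and 1.69 in CDP but was not well above background in GMP, at least 39-fold higher (limma's adjusted p = 1.5e-07), and Zap70 was at least 9.95-fold higher. Gzmb, the granzyme B gene, was at least 27.1-fold lower and Lat fell by 2.73. Cd3d, Cd3g, Ncr1 and Klrb1c were not well above background in either population. The summed signal of the 6 T and NK cell markers was 2.84 and 2.68 in GMP and 5.51 and 5.21 in CDP, with Cd3e at 0.56 and 0.44 against 1.97 and 1.89; the part of such cells in these values was not tested.

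Cell cycle genes were mostly higher in CDP. Of 42 tested genes of G2 and mitosis, 36 were higher, 30 of them at least 2-fold and 30 under every scaling, and 2 lower, with a median of 1.42. Racgap1, needed for cell division, read 2.89 and 2.84 in GMP and 5.34 and 5.51 in CDP, a difference of 2.56 ± 0.06 (limma's adjusted p = 1.48e-08). Prc1, which bundles the central spindle, rose by 2.29 and Birc5, which encodes survivin, by 2.15. Aurkb was at least 2.56-fold lower on its 1 probe but not called after normexp background correction, and Cdk1 fell by 0.56. Of 38 genes of replication and the G1/S step, 30 were higher and 3 lower (12 and 0 at least 2-fold; median 0.86), with 17 and 2 under every scaling. Their median was smaller under other scalings, at 0.22 after normexp background correction and 0.166 both after quantile normalization and in the authors' deposited table, where 17 were higher and 7 lower. Ccne1, the cyclin E1 gene, went from 2.31 and 2.30 to 4.46 and 4.56, while Tyms fell by 0.80 and Mcm2 by 0.64.

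The regulators of cyclin dependent kinases were mixed. Of 14 tested, 10 were higher and 4 lower (71.4% and 28.6%, beside 52.2% and 26.4% of all genes tested). Ccnd1, the cyclin D1 gene, read 1.22 and 1.30 in GMP and 4.60 and 4.65 in CDP, a difference of 3.37 ± 0.22 (limma's adjusted p = 1.98e-06). The inhibitor gene Cdkn2d went from 2.97 and 2.88 to 5.26 and 5.26, and Cdkn1a, which encodes p21, from 0.01 and -0.11 to 2.04 and 1.89. Cdk6 fell by 1.43. Genes of a cyclin and of inhibitors of its kinases were thus both higher.

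Genes of ribosome assembly and MYC targets were more often lower than higher: of 38 tested, 20 were lower and 9 higher, 5 and 1 of them at least 2-fold, with a median of -0.24. Under the scalings other than the array median the falls were more numerous, with 31 or 32 lower, 1 or 2 higher and a median between -0.73 and -0.808, and 15 were lower and 1 higher under every scaling. Npm3, which encodes a nucleolar chaperone, went from 0.98 and 0.87 to -1.77 and -1.57 and Dkc1, the dyskerin gene, from 2.64 and 2.60 to 0.85 and 0.77 (limma's adjusted p = 3.19e-05 for Dkc1). Noc2l was not called although its mean differed by 4.65, since 1 GMP array read -5.27 and the other 4.64 beside 4.34 and 4.34 in CDP. The genes of cytosolic ribosomal proteins show what the scaling does. Of 53 tested, 51 were higher (44 at least 2-fold) with a median of 1.40, but the median was -0.015 after quantile normalization and -0.0061 in the authors' table, and 18 remained higher under every scaling. The median of the 14 reference genes was 0.985 here and -0.28 after quantile normalization. Actb, the beta-actin gene, read 9.01 and 8.89 in GMP and 10.89 and 10.86 in CDP. The direction of both list medians thus depended on the scaling.

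**Figure D4:**
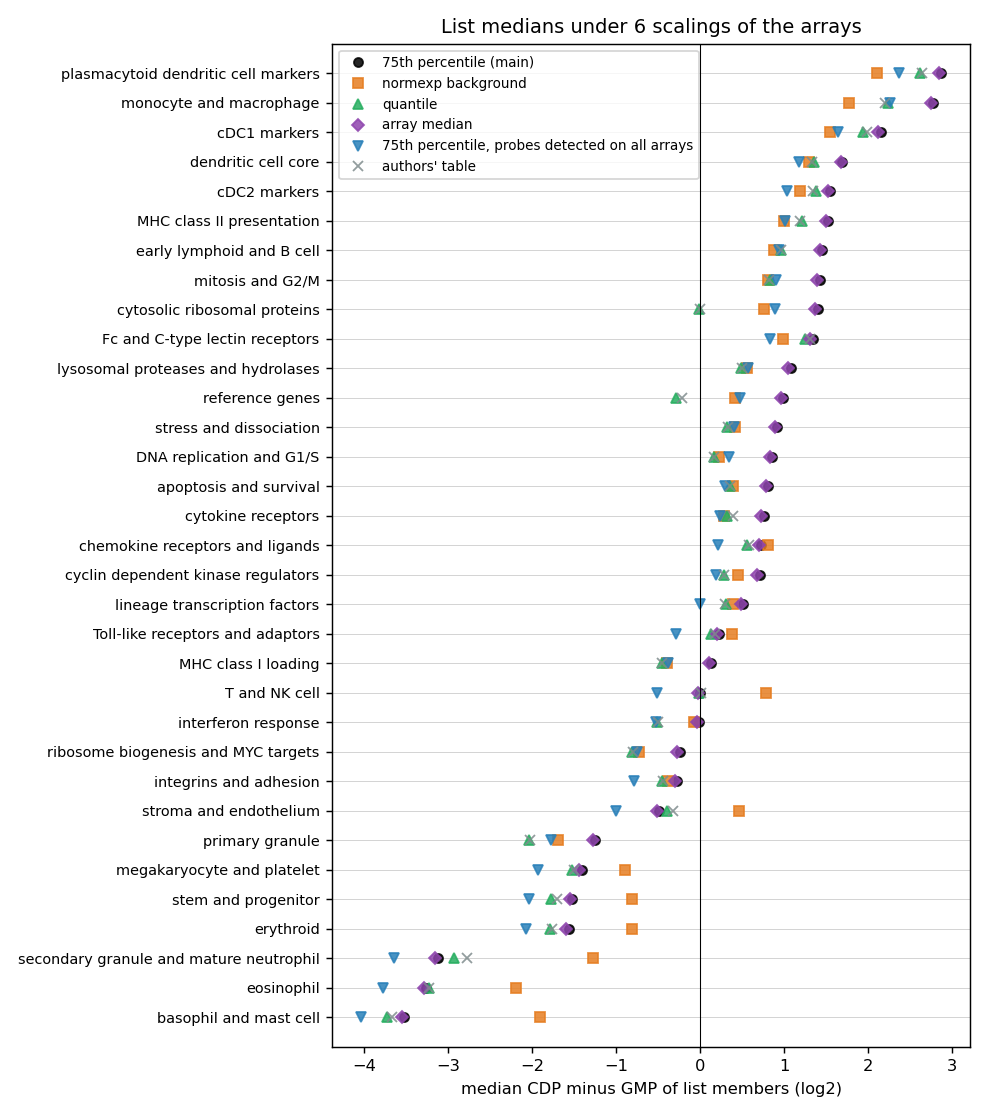
Median difference between CDP and GMP (log2) of the tested members of each of 33 gene lists under 6 scalings of the arrays, 1 marker per scaling. The lists of dendritic cells and monocytes stay right of 0 and those of granules, mast cells, eosinophils, red cells, platelets and stem cells stay left of it under all 6, whereas cytosolic ribosomal proteins run from 1.40 to -0.015 and reference genes from 0.985 to -0.28.

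Lists of innate sensing were mixed. Of 31 interferon response genes, 12 were higher and 15 lower (38.7% and 48.4%, beside 52.2% and 26.4% of all genes tested), with a median of -0.011. Ddx58, which encodes the RNA sensor RIG-I, read 1.41 and 1.32 in GMP and -2.01 and -2.94 in CDP, a difference of -3.84 ± 0.25 (limma's adjusted p = 1.68e-06), and Rtp4 fell by 3.57, while Ifi204 rose by 2.50 and Stat2 by 1.85. Of 24 genes of Toll-like receptors and their adaptors, 12 were higher and 7 lower (50% and 29.2%). These shares were near those of all genes tested (52.2% and 26.4%), so the counts say nothing particular about this list. Unc93b1, which escorts the receptors of nucleic acids to endosomes, went from 3.65 and 3.63 to 6.92 and 6.88. Tlr12 rose by 3.24 and Tlr1 by 2.39, whereas Tlr4, the receptor gene for lipopolysaccharide, was at least 4.25-fold lower. Irak3, an inhibitor gene of the same pathway, went from 2.66 and 2.54 to 0.10 and -0.20.

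Of 29 Fc and C-type lectin receptor genes, 18 were higher and 10 lower (62.1% and 34.5%, beside 52.2% and 26.4% of all genes tested). At least 2-fold, 15 were higher and 8 lower. Pirb, which encodes an inhibitory receptor, read -1.48 and -1.31 in GMP and 3.95 and 3.93 in CDP, a difference of 5.33 ± 0.14 (limma's adjusted p = 1.6e-08). Its activating relative Pira2 was at least 38.3-fold higher, though near-identical copies in this family make the single genes uncertain. Clec4e, a lectin gene for mycobacterial lipid, read 1.72 and 1.75 in GMP and -3.04 and -2.42 in CDP, and Trem3 fell by 4.61. Of 14 chemokine and chemokine receptor genes, 8 were higher and 4 lower (57.1% and 28.6%), near the shares of all genes tested (52.2% and 26.4%). Ccr2, the receptor gene that releases monocytes from marrow, went from 0.58 and 0.57 to 3.39 and 3.35, and Cxcr2, the receptor gene of neutrophil recruitment, was at least 6.34-fold lower.

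Of 28 integrin and adhesion genes, 11 were higher and 15 lower (39.3% and 53.6%, beside 52.2% and 26.4% of all genes tested). Itgb7, which pairs with alpha 4 and alpha E for gut homing, read 2.83 and 2.71 in GMP and 7.38 and 7.31 in CDP, a difference of 4.57 ± 0.07 (limma's adjusted p = 2.13e-09). Selplg, the P-selectin ligand gene, went from 4.44 and 4.35 to 8.22 and 8.18. Vcam1 was at least 10.5-fold lower, and Cd81 fell by 2.24.

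Of 21 genes of apoptosis and survival, 13 were higher and 3 lower (61.9% and 14.3%, beside 52.2% and 26.4% of all genes tested). Pmaip1, which encodes the death factor NOXA, went from -2.17 and -1.81 to 1.15 and 1.37, a difference of 3.25 ± 0.12 (limma's adjusted p = 8.15e-08), and Bcl2, which encodes a survival factor, from 2.70 and 2.76 to 4.43 and 4.43. Of 15 genes that respond to stress and tissue handling, 10 were higher and 4 lower (6 and 1 at least 2-fold; median 0.92). Hspa1a, a heat shock gene, was at least 9.23-fold higher, Jun went from 1.46 and 1.16 to 3.57 and 3.70, and Egr1 was not called; what part handling of the cells has in other differences was not tested. Of 7 tested stroma and endothelium genes, 3 were higher and 3 lower, with the leptin receptor gene Lepr at 0.97 and 1.01 in GMP and 3.1 and 3.21 in CDP, and Cdh5 was not well above background in either.

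**Figure D5:**
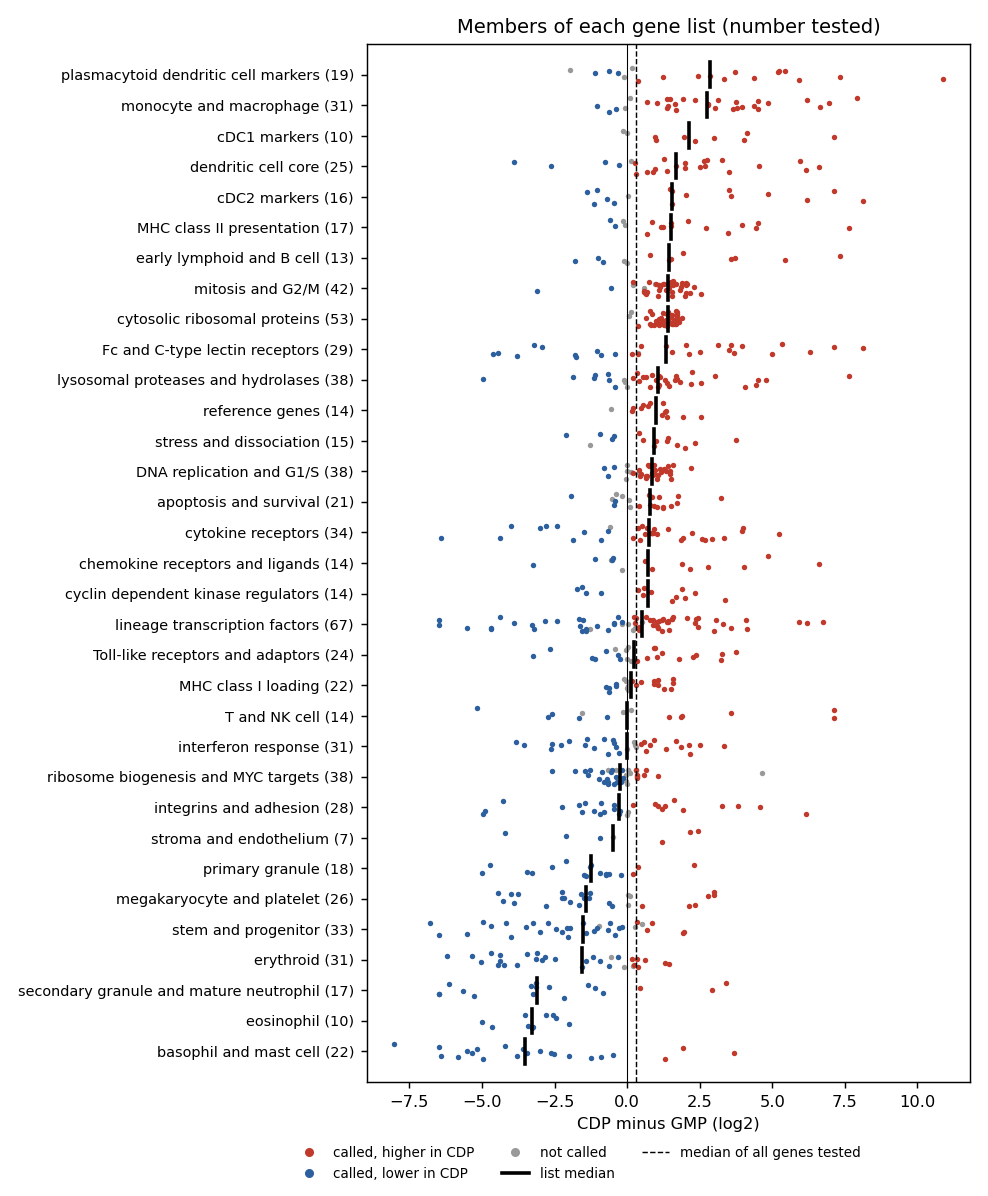
Difference between CDP and GMP (log2, means of 2 arrays each) of every tested member of 33 gene lists, ordered by the list median (black bar), with the number tested in brackets; red and blue points are called higher and lower in CDP, grey points were not called, and the dashed line is the median of all genes, 0.31. Plasmacytoid dendritic cell markers and monocyte genes head the plot with medians of 2.87 and 2.77, and mast cell and basophil genes end it at -3.52. Members tested through 1 cell type alone are included. Over genes well above background on all 4 arrays these medians were 1.23, 2.34 and -1.24.

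Some genes were higher in CDP than in all other cells measured on the same array design. Of 10836 genes well above background on both CDP arrays, 2663 (24.6%) were higher than in each of the 5 other groups at limma's adjusted p under 0.05, and 428 of them led the next group by at least 2-fold. The number depended on the scaling, with 1509 after normexp background correction, 1297 after quantile normalization, 1242 in the table the authors deposited and 1078 when only probes detected on every array set the percentile. The 12 largest leads included several platelet genes. Myl9, a myosin light chain gene of platelets and smooth muscle, read 2.0 and 2.17 in CDP, -2.0 and -2.02 in GMP and -1.21 on average in the next group, pre-cDC, a lead of 3.29. Ppbp led by 3.0 over GMP, Alox12, the platelet lipoxygenase gene, by 2.50, Gp6 by 2.49 and the serotonin transporter gene Slc6a4 by 2.32. The next group's means, -3.55 in Neu for Gp6 and -3.82 in pre-cDC for Slc6a4, lay below those arrays' lowest signals marked as well above background. The size of both leads is therefore uncertain. Myl4 led by 2.57, the bridging protein gene Mfge8 by 2.16 and the progenitor antigen gene Cd93, which read 7.75 and 7.64 in CDP, by 2.14. Fbxw4 (2.43), Gm5088 (2.08), Adamts17 (2.05) and Depp1 (2.66) were the others, and for Depp1 the GMP arrays themselves were apart, at -1.06 and -4.78. The megakaryocyte markers as a sum read 117 and 113 in GMP and 24.5 and 22.9 in CDP, most of it from Pf4. Of the 5 markers Ppbp rose, and Pf4, Itga2b, Gp1bb (-1.60) and Gp9 (-1.33) fell; the part of platelets in these values was not tested.

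Probes without a gene symbol were measured too. Of 4136 probes named only by a genomic interval, 1447 were higher in CDP (35%) and 1337 lower (32.3%), and of 4745 other probes without a symbol 2045 were higher (43.1%) and 1522 lower (32.1%). Among probes with a symbol 49.6% were higher and 27% lower.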

How the data were processed

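Wild-type CDP and GMP (2 arrays each) were measured on single-colour Agilent arrays. Per the file headers the deposited intensity values (processed signal) were extracted and background-corrected with Agilent Feature Extraction 10.7.3.1. The authors' deposited table of normalized intensities for the same arrays served as an alternative after log2. Its method was found under no name, but its sorted values were identical on every array, as quantile normalization leaves them. It is therefore not independent of the quantile alternative, and counts over the other scalings include both. The log2 of the processed signal minus each array's 75th percentile was fitted with limma 3.58.1 in R 4.3.3 (lmFit, eBayes) over 12 arrays of 6 groups, with no covariate. Control spots were left out, spots of a probe averaged, and the brightest probe stood for a gene. A gene was tested where its probe was well above background on both arrays of either group, in at least 0.5 of its spots. Adjusted p-values are Benjamini-Hochberg over all genes tested, called under 0.05.

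Alternatives were normexp (offset 50, on the median signal, since the files used here hold no mean signal), quantile, array median, percentile over detected probes, the authors' table, other filters, the mean over probes, the 4 arrays alone, the replicate number as a block, and each array left out. The members and gene lists were chosen with earlier results of these data known. The text names the 12 largest rises and falls, the 8 largest lower limits of fold each way, up to 5 called genes per list and direction, all transcription factors and cytokine receptors, the 12 largest CDP leads, gate genes and cell type markers; Btla, Haao, Wdfy4, Clec10a, Cox6a2, H2-Aa, H2-Eb1, Sphk1 and Vpreb1 were added after their values were seen. The fit was tested on simulated data. Promoters come from RefSeq (GRCm38.p6), read with Python 3.11.15 and pandas 2.3.3, and plots were drawn with matplotlib 3.10.9.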

Additional observations from a re-analysis of the deposited data

How the results depend on the processing

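Against 9356 genes called, the scalings, filters, probe rule and sample sets gave between 8288 (well above background on all 4 arrays) and 9927 (no filter) calls, and leaving out 1 array gave 8621 to 8806. The share of calls higher in CDP was 66.4%, and it moved to 51.7% after quantile normalization, 52.4% in the deposited table and 40.5% when only probes detected on every array set the percentile; leaving out 1 array gave 66.5% to 67.8%. The count of genes highest in CDP fell from 2663 to 1509 (normexp), 1297 (quantile), 1078 (percentile over detected probes) and 1242 (authors' table), and it could not be computed from the 4 arrays alone. With the replicate number as a block 9270 genes were called. The array titles give each replicate an experiment number, and the same numbers recur in CDP and GMP. Whether same-numbered arrays shared an experiment is not stated in the sources used here. The deviations of same-numbered CDP and GMP arrays correlated at r = -0.0144 over 8716 genes. This value cannot decide whether they were paired, because each group has so few arrays and the groups lay on separate slides.

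In the order normexp, quantile, detected-probe percentile and authors' table, list medians changed sign for class I loading (-0.389, -0.459, -0.378, -0.45). With quantile normalization and in the deposited table they did so for cytosolic ribosomal proteins (-0.0147, -0.0061) and reference genes (-0.282, -0.221), and with detected probes for transcription factors (-0.0011) and Toll-like receptors (-0.284). The medians near 0 of the T and NK cell and interferon lists and that of the 7 stroma and endothelium genes also turned: T and NK cell genes with quantile (-0.0105), array median (-0.0248) and detected probes (-0.511), interferon response genes with no filter (0.251) and on all 4 arrays (0.275), and stroma with normexp (0.468) and on all 4 arrays (1.19). With 1 CDP array left out the 3 turned to -0.0453, 0.0531 and 0.0898. Of 253 named genes checked in this way, 219 kept direction and call in every alternative, and 16 changed sign in at least 1. In the same order of scalings these were Mpo (-0.179, -1.46, -0.14, -1.19), Siglech (-0.167, -0.438, -0.149, -0.433), Fli1 (-0.537, -0.419, -0.498, -0.414) and Fcgr2b (-0.255, -0.0985, -0.352, -0.099). Cd34 did so with normexp (-0.312), quantile (-0.554), authors' table (-0.542) and the mean over its probes (-0.48), and Csf3r with quantile (-0.394), detected probes (-0.0831) and authors' table (-0.386). With normexp the others were Egr1 (0.701), Esam (0.188), H2bc6 (0.0294), Il5ra (0.0835), Snx22 (0.685), Trib1 (0.685), and, also with detected probes, Ppt1 (-0.223, -0.513) and Spi1 (-0.0358, -0.0883). Tlr7 turned to 0.556 over its probes' mean, and Noc2l ranged from -0.302 to 9.61 with 1 array left out. The cause of these changes was not tested.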

Other observations

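Gene families outside the lists of the report also differed, and all were chosen after their values were seen. Of 43 replication-dependent histone genes tested, 38 were higher in CDP and 1 lower, 36 of them at least 2-fold and 36 under every scaling, with a median of 2.26. H1f1, a linker histone gene, rose by 3.66, H2bc3 by 3.52 and H3c14 by 3.49, whereas H2bc6 fell by 0.95 and changed sign after normexp background correction. Of 16 tubulin genes, 13 were higher and 2 lower, with a median of 1.5. Of 7 genes of the PYHIN family, which holds DNA sensors induced by interferon, 6 were higher and 1 lower, with a median of 2.5. All 5 genes of paired immunoglobulin-like receptors were higher, although probes for these near-identical copies may bind each other's transcripts. Of 6 GTPase genes of the GIMAP family, known in lymphocytes, 5 were lower and 1 higher, with a median of -2.02.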
